A study of Danio rerio with 2 samples.

Results

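The 8 genes described here are the core melanin synthesis and melanosome genes *tyr*, *tyrp1a*, *tyrp1b*, *dct*, *pmela*, *oca2*, *slc24a5* and *slc45a2*. They were taken by their symbols from the 25432 genes of 2 droplet single-cell RNA libraries, and all 8 were found. The *mgat4b* mutant library came from zebrafish embryos that carried a plasmid with Cas9 and green fluorescent protein (GFP), each under the *mitfa* promoter, and guide RNAs against *mgat4b*. The control library came from embryos with a nontargeting version of the same plasmid. In both, GFP-positive cells were sorted at 36 hours post fertilisation (hpf). The plasmid was injected at the 1-cell stage, so the cells are mosaic, and the *mitfa* promoter sets which cells express Cas9 and enter the sort. The labels list no treatment for either group and do not say how many embryos were pooled. The study's methods describe phenylthiourea, an inhibitor of tyrosinase, in the water of GFP embryos, without saying whether the sorted embryos had it.

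The mutant library held 4120 barcodes and the control library 1923, of which 3860 and 1771 cells passed the filter, with a median of 6480 unique molecular identifiers (UMIs) per mutant cell and 4919 per control cell. Cells under 1000 UMIs made up 9.22% of mutant cells and 30.2% of control cells, and the libraries shared 2 barcodes. *mgat4b*, the targeted gene, was at 64.3 CPM in the mutant (CPM, the gene's UMIs per 1000000 UMIs of the cells) and 80.8 CPM in the control, a ratio of 0.796 (0.743 to 0.854). With 1 library per group there is no test of mutant against control. The intervals given in brackets are 95% intervals of counting error, and they hold nothing of the variation among embryos or libraries. Those of levels and of ratios of levels treat UMIs as independent draws. They therefore also leave out the variation among cells, and are too narrow where few cells hold most of the UMIs.

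Melanin is made inside melanosomes, which are organelles related to lysosomes. Tyrosinase, the product of *tyr*, carries out the first and rate-limiting steps from tyrosine. Dopachrome tautomerase, encoded by *dct*, and the tyrosinase-related proteins, encoded by *tyrp1a* and *tyrp1b*, act on later intermediates. The *pmela* product forms the fibrils on which melanin is laid down. The 3 transporters set the ionic conditions in the organelle. *oca2* and *slc45a2* encode membrane proteins that bear on melanosomal pH, and *slc24a5* encodes a cation exchanger. In zebrafish embryos melanin is made by melanophores, which derive from the neural crest, and by the pigment epithelium of the retina. Xanthophores and iridophores, the yellow and the reflecting pigment cells, also derive from the neural crest.

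The labels call all of the cells melanocytes, and the 8 genes were set against that label first. No UMI of any of the 8 genes was found in 3237 of 3860 mutant cells and in 1558 of 1771 control cells. A UMI of 3 or more of them was found in 62 mutant cells (1.61%, 1.23 to 2.05%) and in 10 control cells (0.565%, 0.271 to 1.04%). By marker genes other than these 8, the cells fell into 24 clusters, of which 19 took the names of 15 cell classes, from epidermis-like and mesenchyme-like to neuron-like. No cluster took the name melanophore-like or that of the retinal pigment epithelium. In most cells of both libraries the transcripts that define melanin-making cells were thus not detected at this depth, which does not show that the cells lacked them, and the cells are called below by their classes.

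The UMIs of the 8 genes lay mainly in 3 classes, which are called the pigment classes below. They are the neural crest-like cells (129 mutant and 21 control cells), the xanthophore-like cells (328 mutant and 29 control cells) and the iridophore-like cells (52 mutant and 16 control cells). Of the summed UMIs of the 8 genes, these classes held 86.6% in the mutant and 64.8% in the control, although they held 13.5% of all UMIs in the mutant and 5.89% in the control. The summed level was 1339 CPM in mutant and 984 CPM in control neural crest-like cells, 461 CPM in mutant and 201 CPM in control xanthophore-like cells, and 613 CPM in mutant and 423 CPM in control iridophore-like cells. Outside the pigment classes it was 18.7 CPM in the mutant and 19.0 CPM in the control. The 3 classes differed in which of the 8 genes made up their levels, with *slc45a2* shared by all 3. The following paragraphs show this by the role of each gene.

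**Figure D1:**
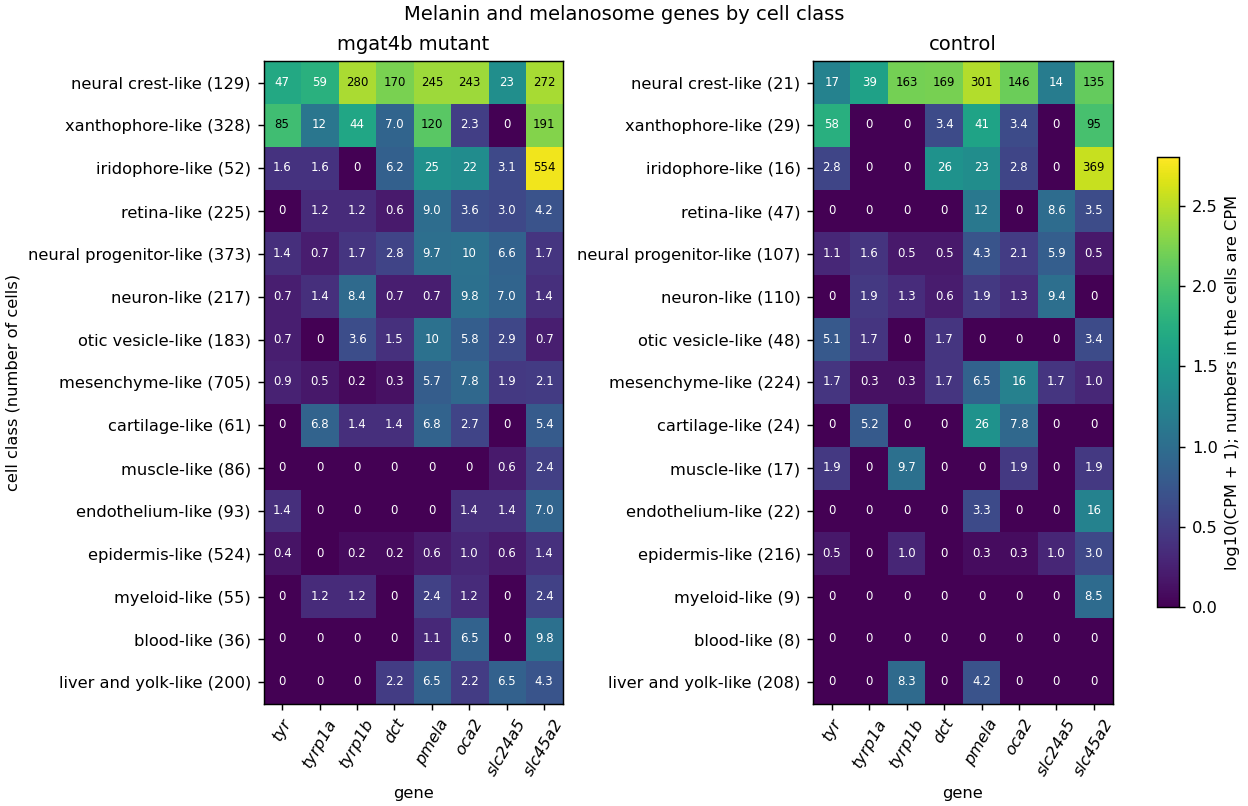
Level of each of the 8 genes (columns, CPM printed in each square and coloured as log10 of CPM plus 1) in each named cell class (rows, number of cells in brackets), in the *mgat4b* mutant library on the left and the control library on the right; cells of unnamed clusters are not shown. The neural crest-like row has UMIs of all 8 genes in both libraries, the xanthophore-like row mainly *tyr*, *pmela* and *slc45a2*, and the iridophore-like row mainly *slc45a2*, at 554 CPM in the mutant and 369 CPM in the control. Few cells make up the neural crest-like row: 15 of 129 mutant cells held 1699 of its 1807 UMIs, and 3 of 21 control cells held 351 of its 356.

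Among the enzymes, *tyr* (ENSDARG00000039077) had its highest class level in xanthophore-like cells and not in the class that held the other enzymes. It had 85.3 CPM in mutant xanthophore-like cells (73.4 to 98.6, with a UMI in 106 of 328 cells) and 57.9 CPM in control xanthophore-like cells (33.8 to 92.8, 9 of 29 cells). In neural crest-like cells it had 47.4 CPM in the mutant (36.5 to 60.6) and 16.6 CPM in the control (6.08 to 36.1). The order of these classes was thus the same in both libraries, with intervals that were separate in the mutant and overlapped in the control. The neural crest-like level averages over unlike cells. In the mutant 59 of its 64 UMIs were in the 15 cells with 5 or more of the 8 genes. In the control all 6 were in the 3 such cells. The class levels therefore do not rank xanthophore-like cells against those cells. In the mutant, xanthophore-like cells held 182 of the 266 *tyr* UMIs, and in the control they held 17 of 38. These were low counts per cell, at most 7 UMIs in a mutant and 4 in a control xanthophore-like cell. In neural crest-like cells the highest counts were 13 in the mutant and 5 in the control. The neuron-like class, which should lack melanin enzymes, gives the background. It had a *tyr* UMI in 1 of 217 mutant cells (0.461%, median depth 5526 UMIs) and in 0 of 110 control cells (upper limit 2.73%, median depth 9983 UMIs). The xanthophore-like shares, 32.3% in the mutant at a median depth of 4524 UMIs and 31.0% in the control at 6542 UMIs, stood far above it. Thinning to 4919 UMIs kept only the xanthophore-like cells with at least that many. Of these, 45 of 153 mutant cells (29.4%) and 4 of 17 control cells (23.5%) had a *tyr* UMI. Thinned to 836 UMIs, 20 of 312 mutant cells (6.41%) and 0 of 27 control cells (upper limit 11.1%) had one. In iridophore-like cells *tyr* had 1 UMI in each library.

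The xanthophore-like class was made of 2 clusters, and both carried *tyr*. Cluster 14, whose leading genes included the xanthophore genes *aox5*, *xdh* and *slc2a15a*, had *tyr* in 74 of 115 mutant cells and 6 of 12 control cells. Cluster 11, with the pteridine genes *gch2* and *pts* among its leading genes and with fewer UMIs per cell, had it in 32 of 213 mutant cells and 3 of 17 control cells. The level was 114 CPM in mutant and 67.5 CPM in control cells of cluster 14, and 42.3 CPM in mutant and 34.9 CPM in control cells of cluster 11.

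The other 3 enzymes were found in few cells, and most of their UMIs, though not most of the cells with a UMI, were in the neural crest-like class (14 of 28 for *tyrp1a* in the control). *dct* (ENSDARG00000006008) had 170 CPM in mutant neural crest-like cells (149 to 194) and 169 CPM in control neural crest-like cells (129 to 217). In that class it was found in 17 of 129 mutant cells and 3 of 21 control cells, and the class held 86.1% of the *dct* UMIs of the mutant and 75.3% of those of the control. *dct* was thus concentrated in the cluster of this name in both libraries, at levels whose intervals overlapped. In the control all 61 UMIs were in 3 cells, with 0 UMIs of the neural crest genes *sox10*, *crestin* and *foxd3*. Whether these are cells of the same type as the mutant ones was not tested. The likeness of the levels depends on 1 cell, which held 43 of the 61 control UMIs of the class. Without the top cell of each library the ratio of mutant over control there was 2.54 (1.56 to 4.38). In xanthophore-like cells it had 15 UMIs in the mutant, 13 of them in 1 cell, and 1 UMI in the control. In iridophore-like cells it had 4 UMIs in 3 of 52 mutant cells and 9 UMIs in 6 of 16 control cells, at most 2 in a cell of either library.

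*tyrp1b* (ENSDARG00000056151) had 280 CPM in mutant neural crest-like cells (253 to 310) and 163 CPM in control neural crest-like cells (124 to 210), with 15 of 129 mutant cells and 3 of 21 control cells positive. Few cells held much of this total. Of its 502 UMIs in the mutant 162 came from 1 cell, and of its 75 UMIs in the control 37 came from 1 cell. In xanthophore-like cells it had 94 UMIs in 7 of 328 mutant cells and 0 UMIs in 29 control cells (upper limit 10.3% of cells). *tyrp1a* (ENSDARG00000029204), the paralog of *tyrp1b*, had 58.5 CPM in mutant (46.3 to 73.0) and 38.7 CPM in control neural crest-like cells (21.2 to 64.9). Reads of these paralogs are counted apart only where their sequences differ, and no check of that was made. The 2 paralogs were seen together in 17 cells, which is 30.4% of the cells with *tyrp1a* and 34.0% of those with *tyrp1b*.

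*pmela* (ENSDARG00000091298), the fibril gene, was shared between neural crest-like and xanthophore-like cells. It had 245 CPM in mutant (219 to 272) and 301 CPM in control neural crest-like cells (247 to 363), in 24 of 129 mutant and 4 of 21 control cells. In xanthophore-like cells it had 120 CPM in the mutant (105 to 135) and 40.9 CPM in the control (21.1 to 71.4), in 67 of 328 mutant and 4 of 29 control cells. In the iridophore-like class the level was lower, 24.9 CPM in the mutant (14.2 to 40.5) and 22.7 CPM in the control (9.81 to 44.8). The order neural crest-like, xanthophore-like, iridophore-like held in both libraries, with the intervals of the last 2 classes overlapping in the control. Of the 109 control neural crest-like UMIs 73 were in 1 cell, and of the 12 control xanthophore-like UMIs 7 were in 1 cell. In neuron-like cells *pmela* had 1 UMI in the mutant and 3 in the control, while retina-like cells had 9.03 CPM in the mutant (14 of 225 cells) and 12.1 CPM in the control (6 of 47 cells), with no more than 2 UMIs in a cell.

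Of the transporters, *slc45a2* (ENSDARG00000002593) was the most widely spread over the pigment cells and the leading member in iridophore-like cells. There it had 554 CPM in the mutant (498 to 615) and 369 CPM in the control (309 to 439), and it was found in 49 of 52 mutant cells and 14 of 16 control cells. Neural crest-like cells had 272 CPM in the mutant (245 to 301) and 135 CPM in the control (100 to 179), and xanthophore-like cells had 191 CPM in the mutant (173 to 210) and 95.4 CPM in the control (63.4 to 138). This order held in both libraries, with the intervals of the last 2 classes overlapping in the control. Of the 49 control neural crest-like UMIs, 35 were in the top cell, so the control order of the last 2 classes depends on that cell. The neural crest-like cells with 5 or more of the 8 genes held 321 of the 367 mutant and 47 of the 49 control UMIs of their class. The class levels therefore do not rank the other neural crest-like cells against xanthophore-like cells. In neuron-like cells *slc45a2* was found in 2 of 217 mutant and 0 of 110 control cells. Of the 8 genes, it was thus the only one with a UMI in most cells of any named class in either library.

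*oca2* (ENSDARG00000061303) was concentrated in neural crest-like cells, at 243 CPM in the mutant (217 to 271) and 146 CPM in the control (110 to 192). It was almost missing from xanthophore-like cells, with 5 UMIs in 328 mutant cells and 1 UMI in 29 control cells. Iridophore-like cells had 21.8 CPM in the mutant (11 of 52 cells) and 2.84 CPM in the control (1 of 16 cells). Low levels were also found in non-pigment classes, for instance 7.79 CPM in mutant and 15.8 CPM in control mesenchyme-like cells. Of the 46 control mesenchyme-like UMIs, 32 came from 1 cell with 52893 UMIs in all. Without the top cell of each library the *oca2* ratio of mutant over control in mesenchyme-like cells was 1.31 (0.691 to 2.62), against 0.492 (0.319 to 0.759) with them.

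*slc24a5* (ENSDARG00000024771) was the only member with most of its UMIs outside the pigment classes in both libraries, 79 of 112 in the mutant and 58 of 63 in the control. For *oca2* this held in the control alone, with 65 of 120 UMIs outside them. It had 0 UMIs in 328 mutant and 29 control xanthophore-like cells, which allows shares of up to 0.915% and 10.3% of cells with a UMI and sets no limit on cells that express the gene. Neural crest-like cells had 23.0 CPM in the mutant (15.6 to 32.6, 16 of 129 cells) and 13.8 CPM in the control (4.49 to 32.2, 1 of 21 cells). Neuron-like cells had 6.98 CPM in the mutant (9 of 217 cells) and 9.44 CPM in the control (10 of 110 cells), and neural progenitor-like cells had 6.55 CPM in the mutant (18 of 373 cells) and 5.89 CPM in the control (10 of 107 cells). Epidermis-like cells, which were deeper, had a *slc24a5* UMI in 3 of 524 mutant and 4 of 216 control cells. Of the cells with *slc24a5*, 83 of 93 in the mutant and 42 of 50 in the control had a lone UMI of it.

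**Figure D2:**
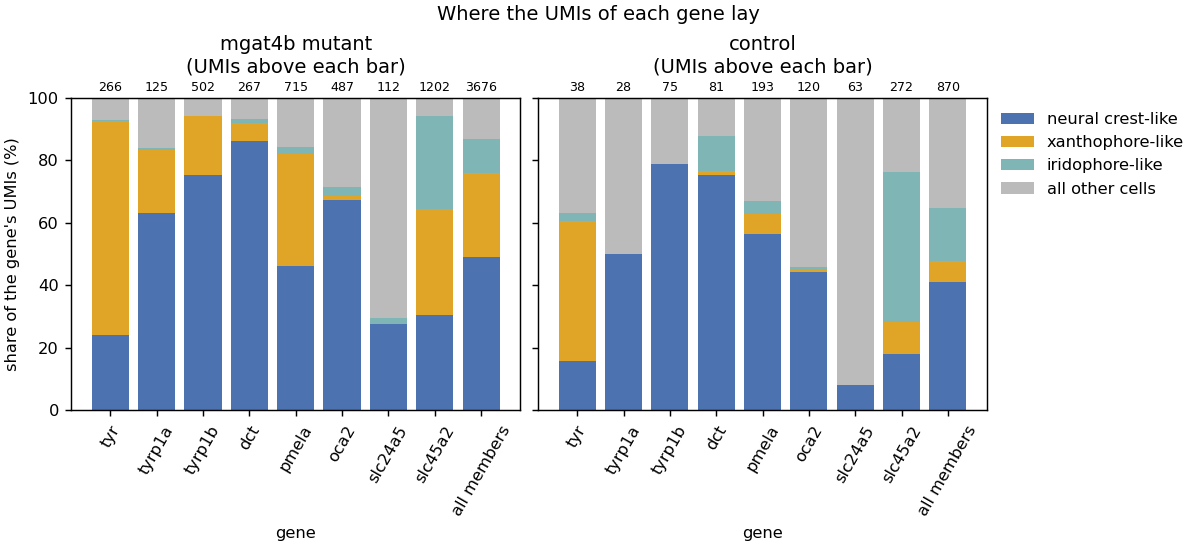
Share of each gene's UMIs (vertical axis, percent) that lay in neural crest-like, xanthophore-like, iridophore-like and all other cells (colours), per gene and for the 8 summed, in the *mgat4b* mutant library on the left and the control library on the right, with the number of UMIs above each bar. *dct* and *tyrp1b* lay mainly in neural crest-like cells, *tyr* in the mutant in xanthophore-like cells, *slc45a2* in all 3 pigment classes, and *slc24a5* mostly in other cells (79 of 112 UMIs in the mutant and 58 of 63 in the control).

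The genes were then followed within single cells. Exactly 2 of the 8 genes were found in 113 mutant and 25 control cells, 3 in 34 mutant and 7 control cells, and 4 in 7 mutant and 0 control cells. All 8 genes were found in 7 mutant cells and 1 control cell, 6 or 7 genes in 7 mutant and 2 control cells, and 5 genes in 7 mutant and 0 control cells. Cells with 5 or more of the genes thus numbered 21 in the mutant (0.544%, 0.337 to 0.830%) and 3 in the control (0.169%, 0.0349 to 0.494%). These cells were chosen by the genes themselves, so what follows describes them and tests nothing.

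**Figure D3:**
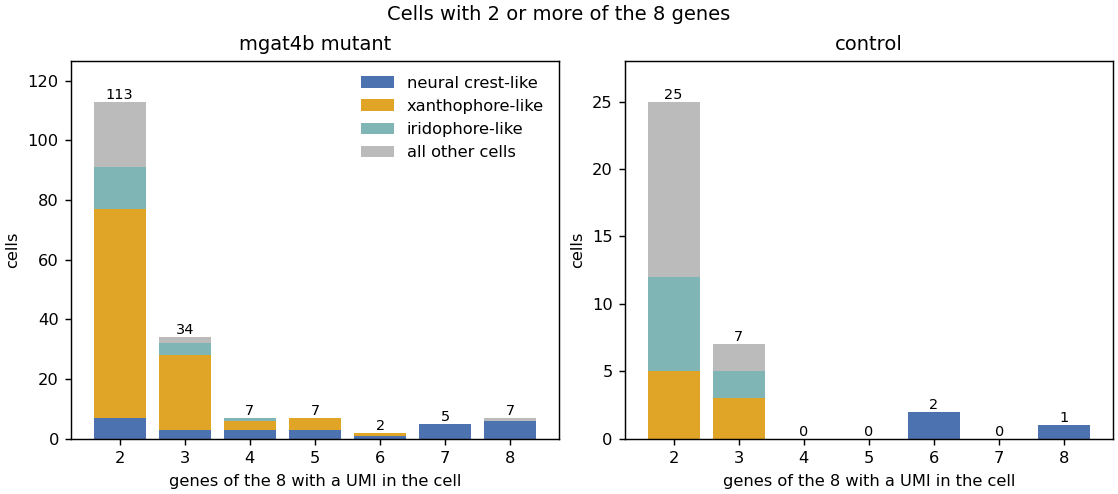
Number of cells (vertical axis, own scale in each panel) by how many of the 8 genes had a UMI in the cell (horizontal axis, 2 to 8), coloured by cell class, in the *mgat4b* mutant library on the left and the control library on the right. Xanthophore-like cells make up most mutant cells with 2 or 3 genes, and neural crest-like cells 12 of the 14 mutant and all 3 control cells with 6 or more.

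Cells with 5 or more of the genes were mostly of the neural crest-like class, which took in 15 of the 21 mutant cells and all 3 control cells. Of the other mutant cells 5 were xanthophore-like and 1 was neural progenitor-like. These few cells held 54.4% of all UMIs of the 8 genes in the mutant and 40.3% in the control. For *dct* the share was 90.6% in the mutant and 75.3% in the control, and for *tyrp1b* it was 90.6% in the mutant and 78.7% in the control. For *tyr* it was only 28.9% in the mutant and 15.8% in the control, and for *slc45a2* 30.4% in the mutant and 17.3% in the control. Within the neural crest-like class, the cells with 5 or more genes had 8168 CPM summed in the mutant (7784 to 8565) and 8330 CPM in the control (7481 to 9249). The remaining neural crest-like cells had 94.6 CPM in 114 mutant cells (77.6 to 114) and 15.6 CPM in 18 control cells (5.08 to 36.5).

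The mutant cell with the most UMIs of the 8 genes had 362 of them among 18284 UMIs in all. It was neural crest-like and had 162 UMIs of *tyrp1b*, 62 of *oca2*, 48 of *pmela*, 43 of *slc45a2*, 28 of *tyrp1a*, 13 of *tyr*, 6 of *slc24a5* and 0 of *dct*. The control cell with the most had 227 among 21434 UMIs, made of 73 of *pmela*, 43 of *dct*, 37 of *tyrp1b*, 35 of *slc45a2*, 21 of *oca2*, 8 of *tyrp1a*, 5 of *tyr* and 5 of *slc24a5*. The other 2 control cells with 5 or more genes had 86 and 38 such UMIs. Over the 21 mutant cells the summed count ran from 9 to 362 with a median of 70.0. The mutant and control cells thus overlapped in their counts, and the control values rest on 3 cells.

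Other genes separate these cells further. *mitfa*, the regulator of the melanophore lineage, had a UMI in 18 of the 21 mutant and 2 of the 3 control cells, *kita*, a receptor that melanophores need, in 11 mutant and 1 control cell, and *sox10*, a neural crest gene, in 16 mutant and 0 control cells. The neural crest genes *crestin* and *foxd3* had a UMI in 11 and 6 of the mutant cells and in 0 control cells. *otx2b*, which is known from the retinal pigment epithelium, and *pmelb*, the paralog of *pmela*, were found together in 1 of the 21 mutant and 2 of the 3 control cells. The control cell with 227 UMIs of the 8 genes had 42 UMIs of *pmelb* and 7 of *otx2b*, and no UMI of *sox10* or *kita*. The other control cell with both had 2 UMIs of *pmelb* and 1 of *otx2b*. Each of these 2 cells had 3 UMIs of *mitfa*. The pigment epithelium gene *rpe65a* had 0 UMIs in the 3 control cells, and *pmelb* was among the melanophore markers used here. Over the whole list of 9 pigment epithelium markers, neural crest-like cells had UMIs of 6 in each library, at a summed 28.9 CPM in the mutant and 88.4 CPM in the control. The part of pigment epithelium cells in the control values of the neural crest-like class was not tested.

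Cells with 3 or 4 of the genes came from several classes. In the mutant 28 of 41 such cells were xanthophore-like, 6 neural crest-like and 5 iridophore-like, and in the control 3 of 7 were xanthophore-like and 2 iridophore-like. Of the 25 mutant and 3 control xanthophore-like cells with exactly 3 of the genes, 22 and 2 had *tyr*, *pmela* and *slc45a2*. These are also the only members that were common in the class, so cells chosen for 3 members hold mostly this trio. In xanthophore-like cells of both libraries *slc45a2* was present in 73.0% of the cells with *tyr* (84 of 115 cells), whereas *oca2* was present in 2 and *slc24a5* in 0 of these 115 cells. The xanthophore-like cells with 3 or 4 genes had a median of 379 UMIs of *gch2*, a pteridine synthesis gene of xanthophores, in the mutant and 714 in the control, and a median of 24.5 UMIs of the xanthophore gene *aox5* in the mutant and 51.0 in the control. The cells with exactly 3 genes were deep, with a median of 12460.5 UMIs in the mutant and 41909 in the control.

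**Figure D4:**
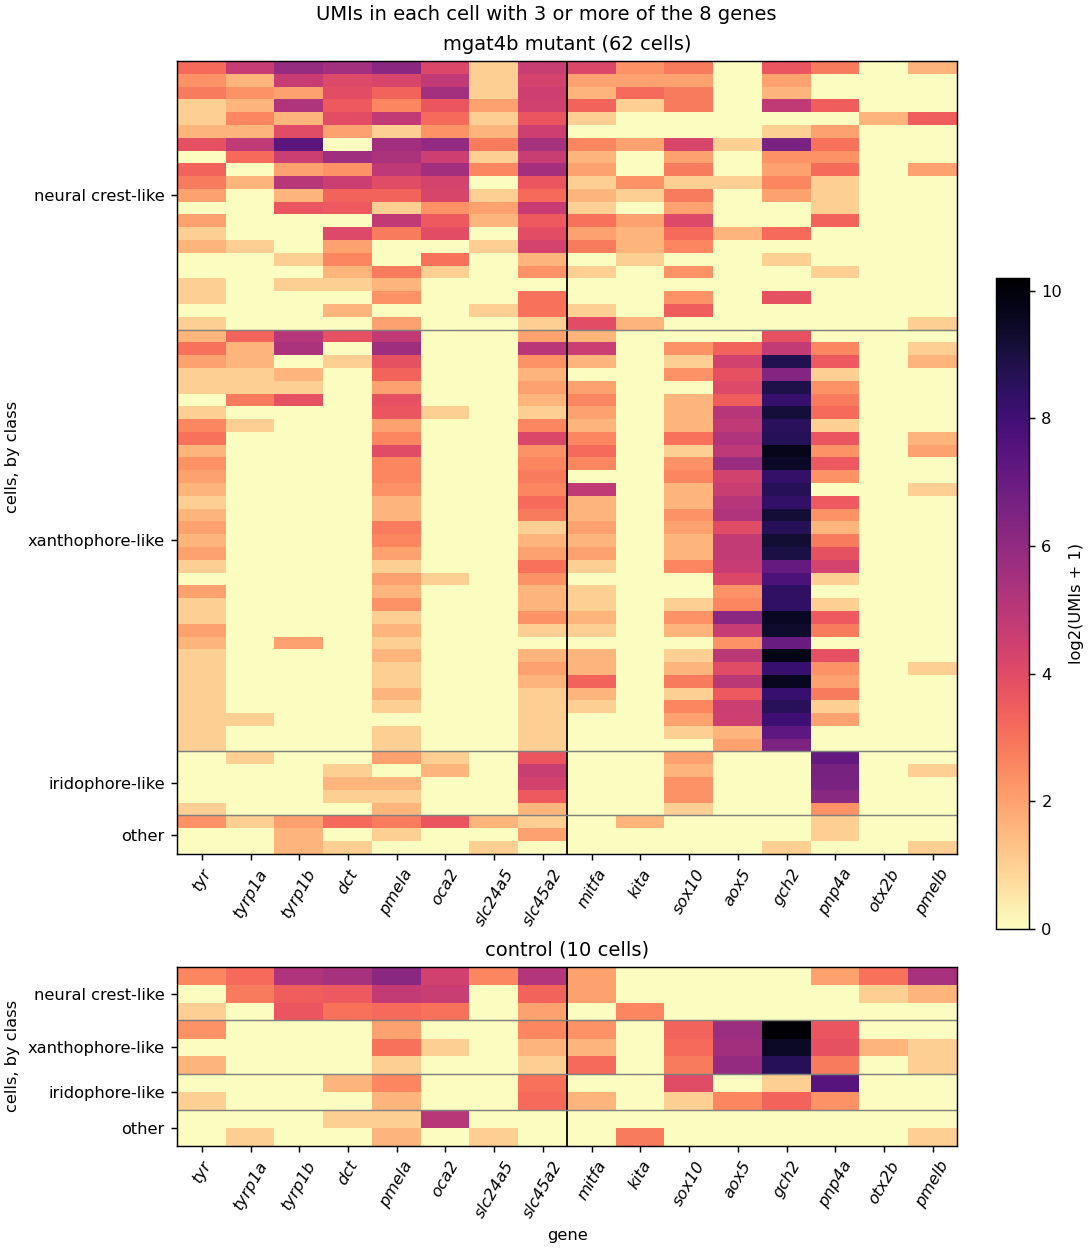
UMIs of the 8 genes and of 8 other pigment genes (columns, coloured as log2 of UMIs plus 1) in every cell with 3 or more of the 8 genes (rows, grouped by class), with the 62 mutant cells above and the 10 control cells below. The full set of melanin genes lies mainly in neural crest-like cells, the xanthophore-like cells show *tyr*, *pmela* and *slc45a2* beside high *gch2* and *aox5*, and 2 of the 3 neural crest-like control cells show *otx2b* and *pmelb*. In 1 of these 2 cells the counts are 1 UMI of *otx2b* and 2 of *pmelb*.

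The genes that led the cells with 5 or more of the 8 genes, by their CPM over all other cells, were *tspan36*, *adgb*, *trpm1b*, *syngr1a*, *qdpra*, *mtbl*, *zgc:91968*, *si:ch211-220m17.4*, *pah* and *tfap2e*. *tspan36* had 2516 CPM in these cells and 145 CPM in all others, and *trpm1b*, a cation channel gene of pigment cells, had 851 CPM in these cells and 43.6 CPM in all others. *qdpra* and *pah*, which encode enzymes of pterin recycling and of tyrosine formation from phenylalanine, had 1573 and 470 CPM in these cells and 106 and 26.7 CPM in all others. *tfap2e*, a transcription factor of the melanophore lineage, had 365 CPM in these cells and 17.1 CPM in all others. With the cut at 3 or more genes the list held *gch2*, *aox5* and the iridophore gene *pnp4a*.

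Across the 24 clusters, with both libraries summed, the genes whose log2 levels (CPM plus 10) were most like the 8 genes summed were *si:dkey-19a16.13* (Pearson r = 0.916), *tmem125b* (0.912), *mtbl* (0.887), *smim29* (0.885) and *syngr1a* (0.881), among genes with at least 100 UMIs. Of the 8 genes themselves, *slc45a2* (0.938) and *pmela* (0.931) followed the sum most closely and *slc24a5* (0.357) least. These values describe 24 clusters of the same 2 libraries, and the sum is dominated by its members with the most UMIs.

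The second question was whether the 8 genes differed between the *mgat4b* mutant and the control. Summed over all passing cells, they had 3676 UMIs in the mutant and 870 in the control, a CPM ratio of mutant over control of 2.37 (2.20 to 2.56). A gene was counted as past the size rule when it met 3 conditions: 50 or more UMIs in both libraries together, a CPM at least 2 times as high in one library as in the other, and a ratio interval without 1. Of the 8 genes, 6 passed it with a higher level in the mutant and 0 with a lower level. Over all 18119 genes with enough UMIs, 4.09% passed it as higher and 5.98% as lower. The 6 genes were *tyr*, *tyrp1b*, *tyrp1a*, *slc45a2*, *oca2* and *pmela*.

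*tyr* had 266 UMIs in 139 mutant cells (8.74 CPM) and 38 UMIs in 24 control cells (2.22 CPM), a ratio of 3.93 (2.79 to 5.68). *tyrp1b* had 502 UMIs in 37 mutant cells (16.5 CPM) and 75 UMIs in 13 control cells (4.39 CPM), a ratio of 3.76 (2.94 to 4.85). *tyrp1a* had 125 UMIs in 40 mutant cells (4.11 CPM) and 28 UMIs in 16 control cells (1.64 CPM), a ratio of 2.51 (1.65 to 3.92). The intervals of these 3 enzyme genes all lay above 1. The fourth enzyme gene, *dct*, had 267 UMIs in 34 mutant cells (8.77 CPM) and 81 UMIs in 20 control cells (4.74 CPM), a ratio of 1.85 (1.44 to 2.40), under the size rule.

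*pmela* had 715 UMIs in 174 mutant cells (23.5 CPM) and 193 UMIs in 56 control cells (11.3 CPM), a ratio of 2.08 (1.77 to 2.45). For *slc45a2* the counts were 1202 UMIs in 301 mutant cells (39.5 CPM) and 272 UMIs in 58 control cells (15.9 CPM), a ratio of 2.48 (2.17 to 2.84). *oca2* had 487 UMIs in 124 mutant cells (15.99 CPM) and 120 UMIs in 32 control cells (7.02 CPM), a ratio of 2.28 (1.86 to 2.81). *slc24a5*, the member that lay mostly outside the pigment classes, was level, with 112 UMIs in 93 mutant cells (3.68 CPM) and 63 UMIs in 50 control cells (3.69 CPM), a ratio of 0.998 (0.726 to 1.38). With trimmed-mean scaling (TMM), which adds 0.15 to the log2 ratio of every gene, the *slc24a5* ratio would lie slightly above 1, with an interval that still spans 1.

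**Figure D5:**
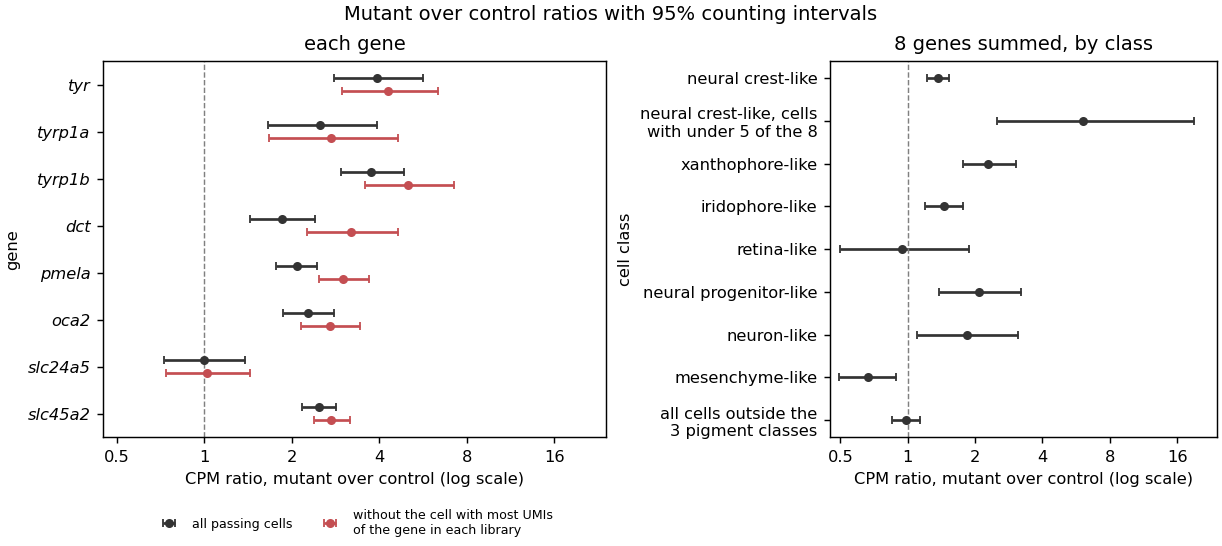
CPM ratio of *mgat4b* mutant over control with 95% counting intervals (horizontal axes, log scale, dashed line at 1), on the left for each gene over all passing cells with and without the cell of each library that had the most UMIs of that gene, and on the right for the 8 genes summed within cell classes. The intervals of 7 genes lie above 1 and that of *slc24a5* spans it (0.726 to 1.38), and the summed ratio is 1.36 in neural crest-like, 2.29 in xanthophore-like and 0.982 in all cells outside the pigment classes.

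Counts over all cells cannot tell apart more cells of a class from more RNA per cell. The pigment classes made up 13.2% of mutant cells (12.1 to 14.3%) and 3.73% of control cells (2.89 to 4.72%). Xanthophore-like cells made up 8.50% of mutant and 1.64% of control cells, neural crest-like cells 3.34% of mutant and 1.19% of control cells, and iridophore-like cells 1.35% of mutant and 0.903% of control cells. Unnamed clusters, which included a low-depth cluster of 119 mutant and 421 control cells, held 15.4% of mutant and 37.5% of control cells. Outside the pigment classes the summed ratio of the 8 genes was 0.982 (0.850 to 1.14). Single genes differed there, and 2 of them depended on single cells. *oca2* had 1.32 (0.974 to 1.79), and 2.36 (1.60 to 3.58) without the top cell of each library. *slc45a2* had 0.677 (0.477 to 0.961), and 1.05 (0.697 to 1.60) without the top cells. The intervals of the other genes spanned 1 with and without the top cells.

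Within the 3 pigment classes, as the clusters define them, the ratios were smaller than over all cells, and that of neural crest-like cells depended on single cells. In neural crest-like cells the 8 genes summed had a ratio of 1.36 (1.21 to 1.53). It was 2.86 (2.39 to 3.46) without the cell with the most such UMIs in each library, since the control cell with 227 of the 356 control UMIs then drops out. Split by the genes themselves, which fixes part of what is compared, it was 0.980 (0.874 to 1.1) among neural crest-like cells with 5 or more of the genes and 6.05 (2.51 to 19.0) among the rest, on 108 mutant and 5 control UMIs. Of the 3 control cells with 5 or more genes, 2 had UMIs of *otx2b* and *pmelb*, 1 of them with only 1 and 2 UMIs, and 0 had a UMI of *rpe65a*. With neural crest-like cells taken as all cells with 3 or more neural crest markers, whatever their cluster, the ratio was 6.76 (5.97 to 7.67). This gate is a different set of 455 mutant and 193 control cells, of which 99 and 16 were in the neural crest-like class. Of the 8 genes, *tyr* and *slc45a2* passed the size rule as higher within the class (at least 20 UMIs), with ratios of 2.86 (1.24 to 8.08) and 2.01 (1.49 to 2.76), and 0 passed as lower, where 6.29% of 7756 genes passed as higher and 8.21% as lower. *pmela* and *dct* had ratios of 0.812 (0.652 to 1.02) and 1.01 (0.759 to 1.36) there, and without the top cell of each library 1.84 (1.29 to 2.68) and 2.54 (1.56 to 4.38).

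In xanthophore-like cells the summed ratio was 2.29 (1.76 to 3.03) and 1.71 (1.31 to 2.27) without the 5 mutant cells with 5 or more genes. Of the 5 genes with at least 20 UMIs in the class, *pmela*, with a ratio of 2.92 (1.64 to 5.73), and *tyrp1b* passed the size rule as higher and 0 as lower, where 3.36% of 7254 genes passed as higher and 6.55% as lower. *tyrp1b* had 94 mutant and 0 control UMIs, which is 4.31-fold higher in the mutant when the control is set to 3 counts over the class. The exact lower limit of the same ratio was 3.44, and 1.94 without the top cells. Of the 94 UMIs 40 were in 1 mutant cell and 34 in another, so few cells carried this difference. The second cell had 1387 UMIs in all, 13 of *gch2* and 0 of *aox5*. It was 1 of 2 among the 5 xanthophore-like cells with 5 or more genes that were in the 119 mutant cells with the highest doublet scores. That number was fixed from the count of cells, and the automatic threshold of the score did not work, so this is no doublet call. The 9 pigment epithelium markers summed to 27.7 CPM in mutant xanthophore-like cells (5 detected) and 607 CPM in control ones (7 detected), where 1 cell had 36 UMIs of *rpe65a*, and their part in these ratios was not tested. *slc45a2*, with 407 mutant and 28 control UMIs in the class, had a ratio of 2.0 (1.36 to 3.05), just under the rule, and *tyr*, with 182 mutant and 17 control UMIs, had 1.47 (0.895 to 2.58). In iridophore-like cells, where *slc45a2* made up most of the sum, the ratio of that gene was 1.5 (1.22 to 1.85). All of these compare 1 library with 1 library.

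The share of cells with 3 or more of the genes was 2.84 times as high in the mutant (1.46 to 5.53), and that of cells with 5 or more was 3.21 times as high (0.959 to 10.8). Within the neural crest-like class 3 or more genes were found in 21 of 129 mutant cells (16.3%, 10.4 to 23.8%) and in 3 of 21 control cells (14.3%, 3.05 to 36.3%). The ratio of these shares was 1.14 (0.372 to 3.49). Among xanthophore-like cells the shares were 10.1% (33 of 328 cells) in the mutant and 10.3% (3 of 29 cells) in the control, a ratio of 0.973 (0.318 to 2.98). These intervals are too wide to show that the shares were alike. Control cells of both classes had a higher median depth, and these shares are without thinning. In neuron-like cells 0 of 217 mutant and 0 of 110 control cells had 3 or more, which allows shares of up to 1.38% and 2.73%.

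The other genes of the melanosome were taken from a list of proteins of melanosome formation and transport, of which 48 of 54 symbols were found and 46 had at least 50 UMIs. In the mutant 13 of the 46 passed the size rule as higher and 0 as lower, with a median log2 ratio of 0.29. Over all genes tested 4.09% passed as higher and 5.98% as lower, with a median of −0.15. The 13 were *gpr143*, *mlpha*, *mlphb*, *rab27b*, *rab32a*, *rab38b*, *rab38c*, *hps5*, *tspan10*, *tspan36*, *trpm1b*, *slc7a11* and *pah*. *rab32a* and *rab38b*, small GTPase genes of cargo delivery to melanosomes, had ratios of 2.84 and 2.59. *mlpha*, which links melanosomes to myosin, had 2.84, and *gpr143*, a melanosomal receptor gene, had 2.35. The BLOC-1 and AP-3 trafficking genes on the list, which many cell types use, had none past the rule, and *atp6v0ca* and *cd63*, 2 of the most abundant, had 1.43 and 1.86.

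Several of these 13 genes were as high or higher in other pigment cells than in the cells with 5 or more of the 8 genes. *mlphb* had 52.5 CPM in the cells with 5 or more of the 8 genes, 235 CPM in the other xanthophore-like cells and 150 CPM in iridophore-like cells. *gpr143* had 220, 240 and 308 CPM in the same cells. *slc7a11*, with 297 UMIs in both libraries, was near absent from all of the pigment classes. It had 0 UMIs in the cells with 5 or more of the genes and in the other neural crest-like cells. In the other xanthophore-like cells it had 0.841 CPM (2 cells) and in iridophore-like cells 1.01 CPM (1 cell). *tspan10* had 154 CPM in the cells with 5 or more genes against 39.5 CPM in the other xanthophore-like cells, and *rab32a* had 795 CPM against 536 CPM.

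Of 18 regulators and receptors of melanophores, 17 had at least 50 UMIs, with *mitfa* (ratio 3.54), *tfec* (3.31) and the endothelin receptor gene *ednrba* (2.25) past the rule as higher, *kitb* (0.358) as lower, and a median log2 ratio of 0.51. *kita* had 125 CPM in the cells with 5 or more of the 8 genes and 0.420 CPM in the other xanthophore-like cells, and a ratio of 0.820 over all cells. *tfe3a*, *pax3a* and *tfap2a*, the most abundant of the list, had ratios of 1.03, 1.11 and 0.713. Of 12 xanthophore pigment genes 9 passed as higher and 0 as lower, with a median log2 ratio of 1.52, led in abundance by *gch2* (ratio 4.65). The next most abundant, *mycbp2* (0.865) and *pax7a* (1.56), did not pass. The other 8 past the rule were *xdh*, *pts*, *aox5*, *pax7b*, *csf1ra*, *slc2a15a*, *slc2a15b* and *bco1*. Of the iridophore genes 11 had enough UMIs, and 3 passed as higher and 0 as lower (median 0.35). These were the purine synthesis genes *gart* (2.26) and *paics* (2.69) and *defbl2*, which had 277 UMIs in the mutant and 0 in the control. *defbl2* was no marker of iridophore-like cells here, with 7.04 CPM in them and 9.25 CPM in xanthophore-like cells with under 5 of the 8 genes, and *paics* was at 1020 CPM in iridophore-like and 2701 CPM in those xanthophore-like cells. The abundant *defbl1* (1.122) and *gmps* (1.82) did not pass. Of 10 pigment epithelium genes 0 passed as higher and *rpe65a* (0.368), *rlbp1b* (0.304) and *rdh5* (0.155) as lower (median −0.29), while the abundant *bhlhe40* (1.45), *stra6* (0.790) and *otx2b* (0.858) did not pass. The median of the 8 melanin genes was 1.24 on the same scale. The counts of each list stand beside the same shares over all genes tested, 4.09% higher and 5.98% lower. All of these lists compare the same 2 libraries.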

How the data were processed

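The authors deposited 1 matrix of whole-number UMI counts per gene and barcode for each library, made with Cell Ranger (7.2.0 in the file headers) against Ensembl GRCz11 and not normalized. Following the study's filter, a cell needed more than 200 genes and less than 5% of its UMIs from mitochondria. Libraries were integrated in Seurat 5.3.0 (2000 features without the 8 genes, 30 dimensions) and clustered by the Louvain method on 13 dimensions at resolution 1. The study's cluster names were not used. Clusters were named from fixed markers, none of them among the 8 genes: the class with most markers in the top 50 genes, and at least 3, gave the name. The 5 unnamed clusters had fewer than 3 markers or another class leading or tying in the top 10. Doublets were kept. Scrublet (scanpy 1.11.5) marked 1 mutant and 0 control cells by its automatic threshold and so did not work, and an alternative left out the 119 mutant and 25 control cells with the highest scores.

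Levels are CPM with exact Poisson intervals, ratios carry exact conditional binomial intervals, shares exact Clopper-Pearson intervals and ratios of shares Katz intervals. A UMI counts a transcript by its 3′ end, so levels were compared mainly between cells. Where the text says which gene led a class or a sum, this ranks counted UMIs and not transcript numbers. Where 0 cells were found, the limit is 3 counts of the total. Thinning to 836 UMIs, the lower quartile of the control, left out 275 mutant and 441 control cells, and thinning to 4919 UMIs left out 1491 mutant and 885 control cells. Simulated data were used to test the size rule. The genes named are the 8, *mgat4b*, in each list the 3 with the most UMIs and those past the size rule, the 10 leading genes of the cells with 3 or 5 or more of the 8 and the 5 genes most like them over clusters. Further genes in the text (*kita*, *sox10*, *otx2b* and *pmelb* among them) were chosen with their values in view. The 8 genes, the lists and the rules were chosen with earlier results of these data known. No sequence or coordinate is given.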

Additional observations from a re-analysis of the deposited data

Results flagged for a closer look

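The summed ratio of the 8 genes, mutant over control, pointed in opposite directions in different classes, with counting intervals that excluded 1 on both sides. It was 1.36 in neural crest-like, 2.29 in xanthophore-like, 1.45 in iridophore-like, 2.08 in neural progenitor-like cells and 1.83 in those called neuron-like, and 0.663 in mesenchyme-like cells, among classes with at least 20 UMIs of the genes. Muscle-like cells, with 5 mutant and 8 control UMIs, had 0.196 (0.0504 to 0.679). The same held for *oca2*, at 1.66 in neural crest-like and 4.67 in neural progenitor-like cells and 0.492 in mesenchyme-like cells. The differences between classes were not tested. In mesenchyme-like cells the lower value rests on 1 control cell with 32 *oca2* UMIs, and without the top cell of each library the summed ratio there was 1.01 (0.715 to 1.44). In neural progenitor-like cells 37 of the 100 mutant UMIs came from 1 cell with all 8 genes, and the ratio without the top cells was 1.46 (0.919 to 2.39). In neuron-like cells 12 of the 43 mutant UMIs came from 1 cell, and the ratio without the top cells was 1.62 (0.899 to 2.96).

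Barcodes that failed the cell filter were used in no comparison, and in the mutant they held the 8 genes at 68.3 CPM (40 UMIs in 260 barcodes, 18 of them in 1 barcode), against 9.67 CPM in the control (4 UMIs in 152 barcodes). None of these barcodes had UMIs of 3 or more of the genes.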

How the results depend on the processing

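The summed ratio of 2.37 over all cells stayed above 1 in 10 of 10 alternatives, and in 9 of them by its interval (the mean of per-cell CPM, 3.13, has none). It ran from 1.82 without cells of 5 or more of the genes to 3.13. TMM factors (edgeR 4.0.16) move every gene by 0.15 on the log2 scale, and 7 of the 8 genes then passed the size rule. For this count and the next the share over all genes was not counted, so neither is read as a result about these genes in particular. Without cells of 5 or more of the genes 2 passed, *tyr* (3.34) and *slc45a2* (2.1), while *dct* had 0.706 (0.376 to 1.34). Those cells were chosen by the genes, and within them the *dct* ratio was 0.637 (0.479 to 0.858). The share of cells with 3 or more genes, 2.84 times as high in the mutant, had an interval that included 1 when cells were thinned to the lower quartile (2.97, 0.683 to 12.9), with the cut at 5 genes (3.21) and with that cut outside the low-depth cluster (2.53). With the cut at 4 genes it was 4.28. Marker gates in place of clusters gave 6.76 for neural crest-like, 3.03 for xanthophore-like and 2.69 for iridophore-like cells. The gates are larger sets that overlap each other, so these values are not for the same cells. They took in 455, 739 and 90 mutant cells and 193, 178 and 29 control cells. The xanthophore gate held 581 control UMIs of the 8 genes, where the class held 59. Resolution 0.5 gave the same cells in the 3 pigment classes. The cuts at 5 genes, the removal of cells of 5 or more genes and of the low-depth cluster, and the size rule without the top cells were added after seeing the data. No paired analysis was possible because each group has 1 library. The control pigment classes hold 16 to 29 cells, which limits every control value within them.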
